A study of Mus musculus with 6 samples.

Results

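The genes described here mark T cells and antigen presenting cells in mouse back-skin epidermis. They came as a list of 45 gene symbols, 26 of T cells, 14 of antigen presentation and 5 shared by most white blood cells, and 39 of them had probe sets annotated to that 1 symbol, out of 11281 genes measured. The 39 were 21 T cell genes, 13 antigen presentation genes and all 5 pan-leukocyte genes. Cd27, Cd69, Lck, Il2rb, Tigit and H2-Ab1 were not analysed here. No filter on low values was used, so each of the 39 was tested.

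Unfractionated keratinocytes from 3 wild type mice were compared with those from 3 K14ΔNLef1 mice, all female, 9.5 weeks old and on the C57BL6/CBA background. The transgene encodes Lef1, a transcription factor of Wnt signalling, lacking its N-terminal part and driven by the keratin 14 promoter, which is active in basal keratinocytes and not in leukocytes. The comparison asks how this transgene in keratinocytes alters expression in unfractionated cells taken from the epidermis. Every sample was hybridised to 1 exon array, on which several probe sets read each gene. The labels mention cell sorting before RNA extraction, and they do not say whether leukocytes were kept or removed.

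Normal mouse epidermis holds a sparse network of white blood cells among its keratinocytes. The main ones are Langerhans cells, which take up antigen and load its peptides on class II molecules, and dendritic epidermal T cells, which carry a gamma-delta T cell receptor with the CD3 chains and mostly lack the coreceptors CD4 and CD8. Class II genes are switched on by the coactivator Ciita, which is recruited to promoter elements named the X and Y boxes.

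A gene's value on an array below is its log2 intensity averaged over probe sets, and a difference is K14ΔNLef1 minus wild type on that log2 scale. Of 14 keratinocyte markers, 12 were at or above the median gene, with Krt14 between 12.81 and 13.06 and Krt5 between 11.98 and 12.48 on all arrays. The late differentiation genes Ivl and Lor were below it by their mean over the arrays, with single values of 4.62 to 6.66 and 6.08 to 7.77. Lor was above the median gene, at 7.25, on wild type replicate 1 and K14ΔNLef1 replicates 2 and 3. Lef1 lay between 5.81 and 7.02 on the wild type arrays and between 11.11 and 11.24 on the transgenic arrays. Median array intensity, on the linear scale, was 190.2 to 199.8 in wild type. It was 154.2 on K14ΔNLef1 replicate 1, the lowest of the 6, and 190.0 and 203.2 on replicates 2 and 3. Its part in the results for that array was not tested.

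The promoters of 3 class II genes are shown because class II genes are known for a shared promoter module, while their values below were not alike in size. Each line gives the bases from 110 to 21 before the RefSeq start (GRCm38.p6), 5′ to 3′ on the strand of the gene. Capitals mark the Y box core ATTGG or its reverse complement CCAAT, and the X box, searched on both strands, whose matches are the longer runs.
H2-Aa (chr17:34287844-34287933, minus strand): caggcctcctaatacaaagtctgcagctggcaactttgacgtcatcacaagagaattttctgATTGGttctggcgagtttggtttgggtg
H2-Eb1 (chr17:34305757-34305846, plus strand): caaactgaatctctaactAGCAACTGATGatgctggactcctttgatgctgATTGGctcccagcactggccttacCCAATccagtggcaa
H2-DMb1 (chr17:34153081-34153170, plus strand): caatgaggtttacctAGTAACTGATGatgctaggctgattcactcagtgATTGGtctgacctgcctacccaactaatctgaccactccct
In H2-Eb1 the X box began 92 and the Y box 59 bases before the start, and in H2-DMb1 they began 95 and 61 bases before it, with 22 and 23 bases between the motifs. The H2-Aa window held the Y box core 48 bases before the start and no match to the X box form searched. That form was kept for its matches in H2-Eb1 and H2-DMb1, so the missing match does not show that H2-Aa lacks an X box. Of 32544 RefSeq promoters, each from 250 bases before to 50 after a start, 37.4% held the Y box core, 0.295% the X box and 0.108% both. Among the 27 members with a promoter in the table, H2-DMb1 and H2-Eb1 were the 2 that held both. The Y box core was the motif planned. Another 5 motif forms were then tried on these promoters, and the X box form was kept after its matches in H2-Eb1 and H2-DMb1 had been seen, so its share among members supports nothing. The 2 motifs do not overlap, and a match is not evidence of binding.

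Icos was the 1 member that rose. It encodes the inducible costimulator, a receptor of activated T cells that is also found on innate lymphoid cells. Its values were 6.70, 7.11 and 6.76 on wild type replicates 1, 2 and 3 and 7.93, 8.39 and 8.07 on K14ΔNLef1 replicates 1, 2 and 3. All transgenic arrays, replicate 1 included, lay above all wild type arrays. The mean went from 6.86 ± 0.22 to 8.13 ± 0.24 (SD, n = 3), a rise of 1.27 (SE 0.20) or 2.42-fold, with a limma adjusted p of 0.0286. Its 3 probe sets differed by 0.60, 1.43 and 1.79, each without overlap between the genotypes. The call was lost with the replicate number as a block (adjusted p of 0.0595), with adjacent numbers in the descriptions as a block (0.0722), with the array number as a covariate (0.0742) and with the median of the probe sets (0.108). It also rested on every array but 1: without K14ΔNLef1 replicate 1 the adjusted p was 0.0219, and without any other single array it was 0.0771 to 0.165, with a difference of 1.14 to 1.40. No member rose in those 5 fits, where 0.195% and 0.168% of all genes rose without K14ΔNLef1 replicates 2 and 3, and 0.142%, 0.0709% and 0.0886% without wild type replicates 1, 2 and 3.

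Over the whole list, 1 of 39 members passed, where 0.328% of all genes rose and 1.16% passed in either direction (limma, adjusted p at or under 0.05). The other 38 did not pass, and 12 of 39 had an unadjusted p under 0.05 and were higher, as were 4.21% of all genes. Of the 39, 36 were higher in K14ΔNLef1 by their mean, against 42.8% of all genes, and the median difference was 0.67, against -0.05 for all genes. The genotypes did not overlap, with K14ΔNLef1 higher, in 5 members, Icos, Cd5, Zap70, Mfge8 and Fcer1g, where 6.91% of all genes did so. Cd83 alone did not overlap with K14ΔNLef1 lower, where 11.8% of all genes did so. The members and lists were chosen with results of these data known, so these counts are a description and no test of the list was made. In RNA of unfractionated cells, more cells of a type in a sample, whatever the reason, and more RNA per cell cannot be told apart.

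The transgenic arrays did not share 1 pattern. K14ΔNLef1 replicate 2 was the highest of the 6 arrays for 31 of 39 members, against 10.7% of all genes. Replicates 2 and 3 both lay above every wild type array for 24 of 39, where 14.4% of all genes did so. Replicate 1 lay within the wild type range for 22 members, below it for 8 and above it for 9, against 23.3%, 47.6% and 29.1% of all genes. The median over the members, relative to the wild type mean, was 0.07 on replicate 1, 1.35 on replicate 2 and 0.84 on replicate 3. Over all genes the same medians were -0.16, -0.06 and 0.03. The wild type mice also varied: replicate 1 was the highest wild type array for 27 members and replicate 2 the lowest for 28, against 33.6% and 40.5% of all genes.

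**Figure D1:**
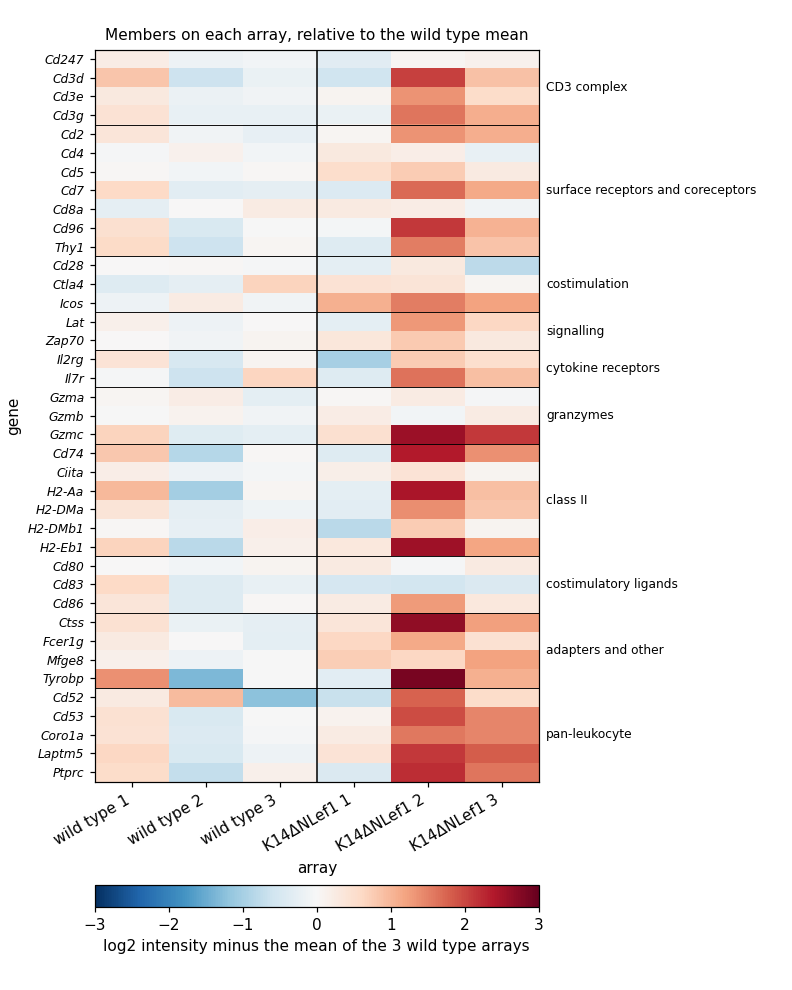
Each row is 1 of the 39 measured members, grouped by role, and each column 1 array. Colour is the log2 intensity minus the mean of the 3 wild type arrays. K14ΔNLef1 replicate 2 is the highest array for 31 members, and Icos is high on all 3 transgenic arrays.

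The CD3 chains, which carry the signal of the T cell receptor, had higher means in K14ΔNLef1, and their partner chain Cd247 did not. Cd3g was 10.10, 9.44 and 9.44 in wild type and 9.46, 11.27 and 10.75 in K14ΔNLef1. Cd3e was 9.57, 9.10 and 9.19 against 9.37, 10.63 and 9.83. Cd3d was 8.50, 7.05 and 7.46 against 7.07, 9.72 and 8.55. In all 3 genes, replicates 2 and 3 of K14ΔNLef1 were above every wild type array and replicate 1 was within the wild type range. The differences were 0.84 (SE 0.44), 0.66 (SE 0.32) and 0.77 (SE 0.63), with limma adjusted p of 0.523, 0.492 and 0.697. For Cd3g, 6 of 6 probe sets had both of those arrays above wild type, for Cd3e 4 of 6 and for Cd3d 1 of 5, against 13278 of 109751 over all probe sets.

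Cd247, the zeta chain, was 7.99, 7.61 and 7.68 in wild type and 7.43, 7.83 and 7.90 in K14ΔNLef1. The genotypes overlapped and the difference was -0.04 (SE 0.20, adjusted p of 0.963). The sign of this small difference was not stable, since it was 0.07 with all array medians made equal and 0.08 after quantile normalization. Its 15 probe sets disagreed, with 9 higher and differences from -1.38 to 1.16, so the gene mean combines opposite differences. Replicates 2 and 3 were both above every wild type array in 2 of the 15.

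Among other surface proteins of T cells, Cd2, an adhesion receptor, was 8.23, 7.76 and 7.62 in wild type and 7.94, 9.22 and 8.96 in K14ΔNLef1, a difference of 0.84 (SE 0.34, adjusted p of 0.388). Thy1, which dendritic epidermal T cells carry and fibroblasts can express too, was 9.18, 7.99 and 8.66 against 8.22, 10.15 and 9.47, a difference of 0.67 (SE 0.49, adjusted p of 0.662). Cd96, a receptor of T cells and natural killer cells, was 6.87, 5.94 and 6.38 against 6.34, 8.52 and 7.43, a difference of 1.04 (SE 0.50, adjusted p of 0.492). These genes had the same array order within K14ΔNLef1, with replicate 2 highest, replicate 3 next and replicate 1 within the wild type range. Cd7 followed with a difference of 0.81 and an adjusted p of 0.611.

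Cd5, which dampens receptor signals, had another array order, at 7.12, 6.99 and 7.11 in wild type and 7.59, 7.83 and 7.35 in K14ΔNLef1. The genotypes did not overlap, and the difference of 0.52 (SE 0.19) did not pass (adjusted p of 0.318). Zap70, the kinase that binds phosphorylated CD3 chains, was 6.53, 6.40 and 6.59 against 6.84, 7.29 and 6.79, a difference of 0.46 (SE 0.20, adjusted p of 0.405). Lat, the adapter that Zap70 phosphorylates, overlapped between the genotypes, with a difference of 0.54 (SE 0.36).

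The coreceptors differed little. Cd4 was 6.09, 6.25 and 6.03 in wild type and 6.42, 6.33 and 5.91 in K14ΔNLef1, a difference of 0.10 (SE 0.20, adjusted p of 0.889). Cd8a was 5.85, 6.12 and 6.37 against 6.39, 6.34 and 6.01, a difference of 0.14 (SE 0.21, adjusted p of 0.846). Replicates 2 and 3, which were high for the CD3 chains, lay between 5.91 and 6.34 here. Both coreceptors were below the median gene, at a log2 value of 7.25, and whether they were detected was not tested. Cd28, the costimulatory receptor read by 1 probe set, differed by -0.26 and its competitor Ctla4 by 0.29, with adjusted p of 0.761 and 0.757. Cytokine receptor genes were uneven, at 0.72 for Il7r, the interleukin 7 receptor, and 0.09 for Il2rg, the shared gamma chain, and on replicate 1 Il2rg was 7.35, below every wild type array.

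The granzymes, proteases that killer lymphocytes deliver to their targets, were uneven within the family, though the differences between them were not tested. Gzmc was 6.16, 5.13 and 5.19 in wild type and 5.97, 8.06 and 7.61 in K14ΔNLef1. Replicates 2 and 3 were above every wild type array and replicate 1 was not. The mean went from 5.50 ± 0.58 to 7.21 ± 1.10 (SD, n = 3), a difference of 1.72 (SE 0.53), the largest of the 39, with an adjusted p of 0.231. All 3 of its probe sets had replicates 2 and 3 above wild type, with differences of 1.17, 1.77 and 2.22. Gzmb lay between 5.13 and 5.48 and Gzma between 4.75 and 5.29 on all 6 arrays, with differences of 0.13 and 0.07 and adjusted p of 0.837 and 0.916. By their mean over the 6 arrays, all 3 granzymes were below the median gene, and whether Gzmb and Gzma were detected was not tested. Granzymes are a family of related genes, and whether their probe sets read each other's transcripts was not tested.

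**Figure D2:**
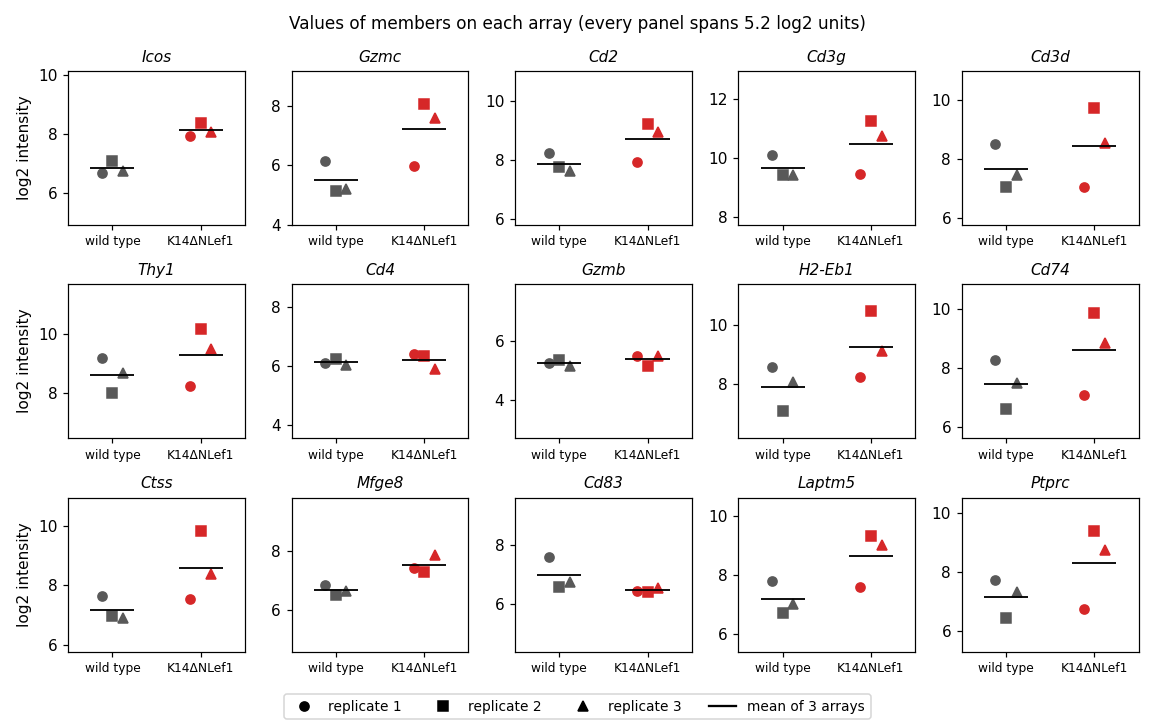
Log2 intensity of 15 members on each array, with wild type in grey and K14ΔNLef1 in red. Circles, squares and triangles are replicates 1, 2 and 3, lines are means of 3 arrays, and every panel spans the same range. Icos and Mfge8 separate the genotypes, Cd83 separates them in the other direction, and Cd4 and Gzmb lie together.

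None of the 13 antigen presentation genes passed over all genes (limma), and 4 had an unadjusted p under 0.05, all higher, as had 4.21% of all genes. Of the 13, 12 were higher in K14ΔNLef1 and the median difference was 0.74. Class II molecules present peptides to helper T cells. The beta chain gene H2-Eb1 was 8.58, 7.09 and 8.06 in wild type and 8.23, 10.45 and 9.10 in K14ΔNLef1. The alpha chain gene H2-Aa was 8.49, 6.49 and 7.57 against 7.22, 9.97 and 8.43. Cd74, the invariant chain that guards the peptide groove, was 8.28, 6.61 and 7.50 against 7.08, 9.84 and 8.84.

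In all 3, K14ΔNLef1 replicate 2 was the highest array and wild type replicate 2 the lowest, and replicate 1 of K14ΔNLef1 was within the wild type range. The wild type arrays alone spread by an SD of 0.76, 1.0 and 0.83. The differences were 1.35 (SE 0.57), 1.02 (SE 0.71) and 1.12 (SE 0.68), with limma adjusted p of 0.401, 0.642 and 0.589. All 10 Cd74 probe sets and all 5 of each chain were higher in K14ΔNLef1, though 1 H2-Aa probe set differed by 0.01 while its other 4 differed by 1.23 to 1.33.

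The genes that load class II molecules were less even. H2-DMa, a chain of the peptide exchanger, differed by 0.64 (SE 0.41, adjusted p of 0.615). H2-DMb1, its partner chain, was read by 1 probe set and differed by 0.01 (SE 0.37, limma adjusted p of 0.996). The promoter of H2-DMb1 holds matches to the same motifs as that of H2-Eb1, but the X box form was kept for these matches. Nothing about the values follows from them. The direction of the H2-DMb1 difference is not settled: with the array number as a covariate it was -0.02, and after quantile normalization 0.20. On K14ΔNLef1 replicate 2, H2-DMb1 was 11.48, the highest of its 6 values, and on replicate 1 it was 9.91, the lowest. Ciita, the class II coactivator, was 6.42, 6.08 and 6.17 in wild type and 6.40, 6.63 and 6.31 in K14ΔNLef1, with a difference of 0.23 (SE 0.18, adjusted p of 0.694). Its transgenic arrays spanned 0.32, against 2.76 for H2-Aa and 2.22 for H2-Eb1. Ciita was below the median gene and the other genes were above it. Among other members below it by their mean, Cd83 spanned 0.12 and Cd96 2.17. Whether the low level of Ciita narrowed its span was not tested.

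Ctss, the protease that trims the invariant chain, was 7.64, 6.98 and 6.91 in wild type and 7.55, 9.83 and 8.40 in K14ΔNLef1, a difference of 1.42 (SE 0.52, adjusted p of 0.329). Fcer1g, a signalling adapter of Fc receptors in Langerhans, natural killer and some T cells, was 7.39, 7.13 and 6.82 against 7.73, 8.24 and 7.58, with no overlap and a difference of 0.74 (SE 0.24, adjusted p of 0.261). Its fellow adapter Tyrobp ranged from 6.0 to 8.72 among the wild type arrays and from 7.04 to 10.19 among the transgenic arrays, the widest wild type spread of the 39 members at an SD of 1.36.

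Mfge8, a secreted protein that bridges dying cells to phagocytes and is known in Langerhans cells, was 6.84, 6.53 and 6.66 in wild type and 7.42, 7.30 and 7.88 in K14ΔNLef1. It did not overlap between the genotypes, and it was 1 of 8 members for which replicate 2 was not the highest array. The mean went from 6.68 ± 0.16 to 7.53 ± 0.31 (SD, n = 3), a difference of 0.86 (SE 0.21, adjusted p of 0.132), and 14 of 14 probe sets were higher. With all array medians made equal Mfge8 passed (difference 0.97, adjusted p of 0.0463).

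Costimulatory ligands, which engage Cd28 on T cells, did not pass. Cd86 was 4.99, 4.25 and 4.66 in wild type and 4.88, 5.92 and 4.94 in K14ΔNLef1, high on replicate 2 alone, and differed by 0.61 (SE 0.32, adjusted p of 0.526). Cd80 differed by 0.16 (SE 0.17). Neither ligand separated the genotypes. Cd83, a marker of mature dendritic cells, was 7.58, 6.58 and 6.76 against 6.46, 6.42 and 6.54, lower on every transgenic array, with a difference of -0.50 (SE 0.27, adjusted p of 0.543). Without wild type replicate 1, the highest array, the difference was -0.19 (adjusted p of 0.901). The gap was narrow, and all 5 Cd83 probe sets were lower, by 0.19 to 0.89, values that did not pass.

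The pan-leukocyte genes had the largest median difference, 1.13 over 5 genes, and none passed over all genes (limma). An unadjusted p under 0.05 was found for 3, all higher, as for 4.21% of all genes. Ptprc, the phosphatase CD45 that every white blood cell bears, was 7.71, 6.45 and 7.30 in wild type and 6.73, 9.36 and 8.75 in K14ΔNLef1. Replicates 2 and 3 stood above every wild type array in 33 of its 35 probe sets, and replicate 1 lay within the wild type range. The difference was 1.13 (SE 0.63, adjusted p of 0.563). Laptm5, a lysosomal protein of blood cells, was 7.80, 6.72 and 7.02 against 7.58, 9.30 and 9.0, a difference of 1.44 (SE 0.46, adjusted p of 0.255). Coro1a, an actin regulator of leukocytes, was 6.94, 6.10 and 6.48 against 6.75, 8.09 and 7.96, a difference of 1.09 (SE 0.38, adjusted p of 0.302). Cd53 differed by 1.17 and Cd52 by 0.56, with wild type replicate 2 at 8.73 for Cd52, above K14ΔNLef1 replicates 1 and 3.

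**Figure D3:**
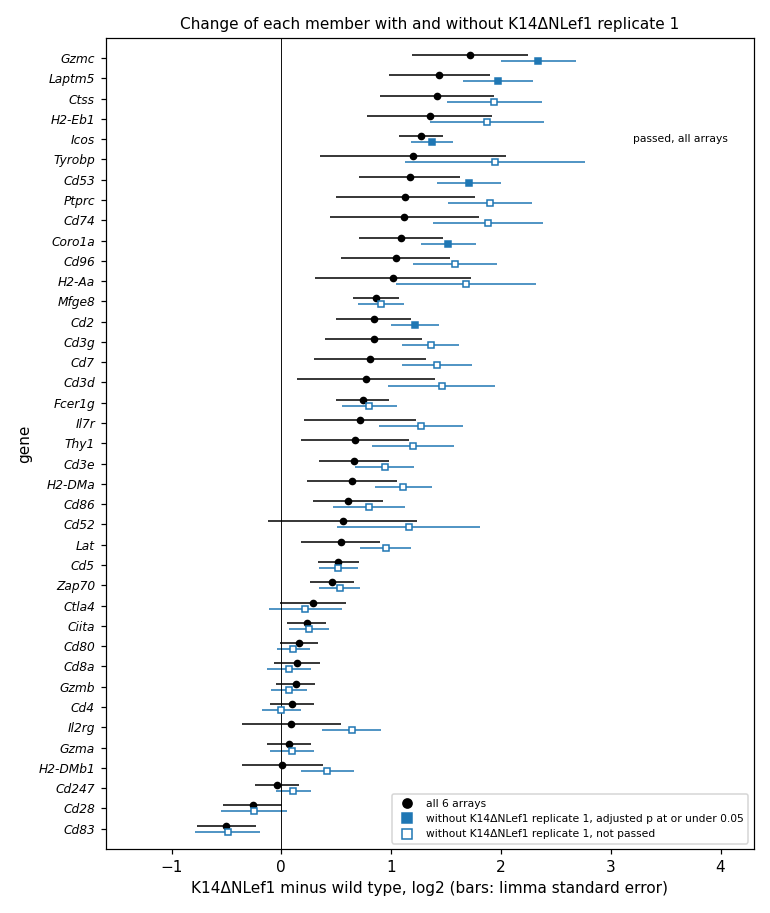
Difference between K14ΔNLef1 and wild type for each of the 39 members on the log2 scale, with limma standard errors. Black circles use all 6 arrays and squares leave out K14ΔNLef1 replicate 1, filled where the gene then passed. With all arrays Icos passed, and without that array Icos, Gzmc, Cd2, Laptm5, Coro1a and Cd53 passed. Replicate 1 was the lowest transgenic array for 26 of the 39 members.

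K14ΔNLef1 replicate 1 had the lowest median intensity. It was also the lowest transgenic array for 26 of 39 members, against 54.4% of all genes. Leaving it out therefore favours higher differences in these same members, and the calls are no separate support. Without it, 6 of 39 members rose, where 1.02% of all genes rose and 2.12% passed in either direction (limma, adjusted p at or under 0.05). These were Icos, Gzmc with a rise of 2.34 (adjusted p of 0.0241), Cd2 with 1.22 (0.0447), Laptm5 with 1.97 (0.0347), Coro1a with 1.52 (0.0371) and Cd53 with 1.71 (0.0386). Cd3g and Ptprc were nearest among the rest, at 1.36 and 1.90, with adjusted p of 0.0611 and 0.0642. No antigen presentation gene passed in that fit either, and the lowest adjusted p there was 0.0845, for Ctss. The median differences then became 0.94 for T cell, 0.91 for antigen presentation and 1.71 for pan-leukocyte genes, against -0.02 for all genes. Without K14ΔNLef1 replicate 2 in place of replicate 1, they were 0.24, 0.31 and 0.78, against -0.05 for all genes. The medians on single arrays moved with the normalization. For T cell genes they were 0.03, 1.29 and 0.54 on replicates 1, 2 and 3 as deposited and 0.43, 1.35 and 0.52 after quantile normalization, so replicate 1 came close to replicate 3. For antigen presentation genes they were 0.18, 1.28 and 0.84 as deposited and 0.50, 1.25 and 0.78 after it. For pan-leukocyte genes they were 0.10, 1.96 and 1.46 as deposited and 0.45, 2.01 and 1.39 after it. After quantile normalization the median on replicate 1 was 0.20 for all genes and 0.47 to 0.67 for the lists of macrophage, B cell, mast cell, fibroblast, endothelial and melanocyte genes.

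Single probe sets gave the same spread. The 39 members had 295 probe sets, of which 260 were higher in K14ΔNLef1 by their mean, against 42.5% of all probe sets. None of the 295 passed over all probe sets, where 0.19% of all did (limma), while 53 had an unadjusted p under 0.05, 52 of them higher, against 8918 and 3065 of all 109751 probe sets. In 43 the genotypes did not overlap with K14ΔNLef1 higher, where 5.11% of all probe sets did so. The lowest adjusted p was 0.127, for a Laptm5 probe set.

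**Figure D4:**
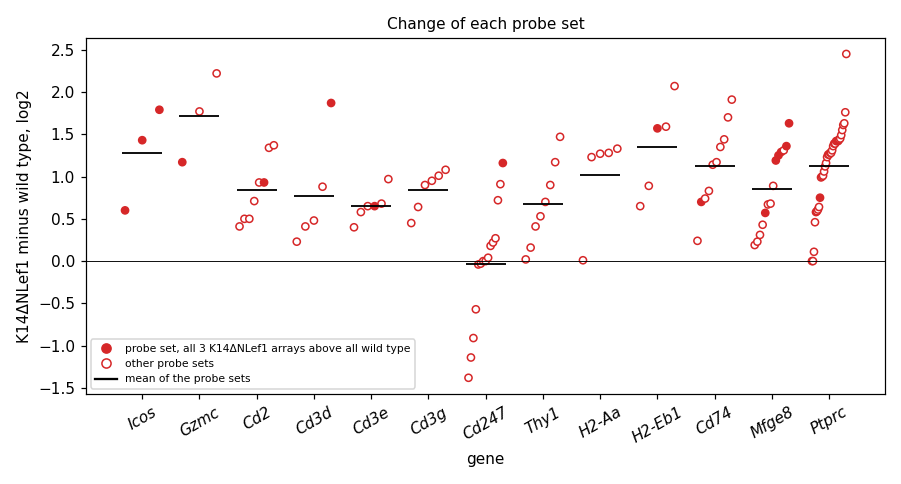
Difference between K14ΔNLef1 and wild type for every probe set of 13 members, on the log2 scale. Filled circles are probe sets with all 3 transgenic arrays above all wild type arrays, and lines are the mean of a gene's probe sets. Those of Icos are all filled, and those of Cd247 lie on both sides of 0.

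Other genes of T cells and cytotoxic cells were read in a wider list of 37. None passed over all genes (limma), 8 had an unadjusted p under 0.05 and were higher, and 1 with such a p was lower. Of all 11281 genes 1330 had an unadjusted p under 0.05, 475 of them higher. The median difference of the list was 0.28. Of the 37, 30 were higher, against 42.8% of all genes. The genotypes did not overlap with K14ΔNLef1 higher in 11, against 6.91% of all genes, and with K14ΔNLef1 lower in 1, against 11.8%. Replicates 2 and 3 both lay above every wild type array for 20 of 37, against 14.4% of all genes. Il2ra, the interleukin 2 receptor alpha chain of activated T cells, was 5.32, 5.35 and 5.28 in wild type and 5.83, 6.44 and 6.22 in K14ΔNLef1. There was no overlap (difference 0.85, SE 0.20, adjusted p of 0.121), and Il2ra rose by 1.01 without K14ΔNLef1 replicate 1 (0.0224). Without any other single array it did not pass (limma adjusted p of 0.209 to 0.408). Jaml, a costimulatory receptor of dendritic epidermal T cells, was 6.44, 6.95 and 6.91 against 7.38, 7.67 and 7.72 (difference 0.82, adjusted p of 0.144). Rasgrp1, which links receptor signals to Ras and is also made by keratinocytes, ran the other way, at 8.94, 8.37 and 8.37 against 6.98, 7.45 and 7.58 (difference -1.23, adjusted p of 0.0641).

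Of 26 further Langerhans and dendritic cell genes none passed (limma), and the median difference was 0.23. An unadjusted p under 0.05 was found for 2, both higher, as for 4.21% of all genes. Cd207, the langerin that defines Langerhans cells, was 6.36, 5.99 and 6.17 in wild type and 6.22, 7.05 and 6.80 in K14ΔNLef1. Replicates 2 and 3 were above the wild type arrays, as for Cd74, and the difference was 0.52 (SE 0.24, adjusted p of 0.472). Spi1, the myeloid transcription factor, had no overlap and differed by 0.80 (adjusted p of 0.22). Without K14ΔNLef1 replicate 1 it rose by 1.03 (0.033), and without any other single array it did not pass (limma adjusted p of 0.292 to 0.64).

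Class I presentation genes, active in most cells including keratinocytes, were mostly lower by their means, and class II genes were higher. On K14ΔNLef1 replicates 1, 2 and 3 the class I median, relative to the wild type mean, was -0.78, -0.25 and -0.23. The class II median was -0.31, 1.88 and 0.88, and the difference between these lists was not tested. Of 15 class I genes measured, 14 were lower in K14ΔNLef1, 7 of them without overlap, with a median difference of -0.45. Of all 11281 genes 6451 were lower, and 11.8% were lower without overlap. Of the 15, 14 were at or above the median gene, and over all genes that bright the median difference was -0.20. None passed (limma), and 3 had an unadjusted p under 0.05, none of them higher, against 1330 of all 11281 genes, 475 of them higher. The immunoproteasome gene Psmb9 was 11.11, 10.97 and 10.98 in wild type and 10.02, 10.65 and 10.21 in K14ΔNLef1 (difference -0.73, SE 0.21, adjusted p of 0.197). The peptide transporter gene Tap2 was 7.65, 7.62 and 7.66 against 7.11, 7.25 and 7.01 (difference -0.52, SE 0.16, adjusted p of 0.244). After quantile normalization 13 of 15 were lower and the median was -0.32. Keratinocyte markers were lower as well, 12 of 14 with a median of -0.34, and both lists were lowest on replicate 1, at -0.78 and -0.51. What the 2 lists have in common was not tested.

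Markers of other cells had smaller median differences. The median difference was 0.10 for 18 macrophage, monocyte and neutrophil genes, 0.17 for 8 B cell genes, 0.10 for 6 mast cell genes, 0.13 for 14 fibroblast genes (Thy1 among them, which is also a member), 0.14 for 11 endothelial genes and 0.12 for 11 melanocyte genes, and none of these genes passed (limma). Of all 11281 genes 1330 had an unadjusted p under 0.05 (limma), 475 of them higher. Such a p was found for 2 of 14 fibroblast genes, none of them higher, and for 3 of 11 melanocyte genes, all higher. The other 4 lists had none. On K14ΔNLef1 replicate 2 the medians of all these lists lay between -0.05 and 0.38 above the wild type mean. For T cell, antigen presentation and pan-leukocyte genes the medians were 1.29, 1.28 and 1.96. At 0.35 and 0.21, the wider T cell and Langerhans lists lay in the same low range by this median. Both replicates 2 and 3 were above every wild type array for 20 of 37 and 8 of 26, against 14.4% of all genes. For macrophage, B cell and mast cell genes it was 3 of 18, 2 of 8 and 0 of 6. Fibroblast, endothelial and melanocyte genes had 5 of 14, 1 of 11 and 4 of 11. Few of these genes were at or above the median gene: 1 of 18 macrophage, monocyte and neutrophil, 1 of 8 B cell and 0 of 6 mast cell genes. For fibroblast, endothelial and melanocyte genes it was 4 of 14, 0 of 11 and 2 of 11. In the wider T cell and Langerhans lists it was 12 of 37 and 7 of 26, against 22 of 39 members. Some members below the median gene by their mean over the arrays did differ by that much, and others did not. Relative to the wild type mean, replicate 2 was at 2.57 for Gzmc, 2.12 for Cd96, 0.24 for Gzma and -0.09 for Gzmb. Whether a low level lessened the differences of other dim genes was not tested, nor were the differences between lists.

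**Figure D5:**
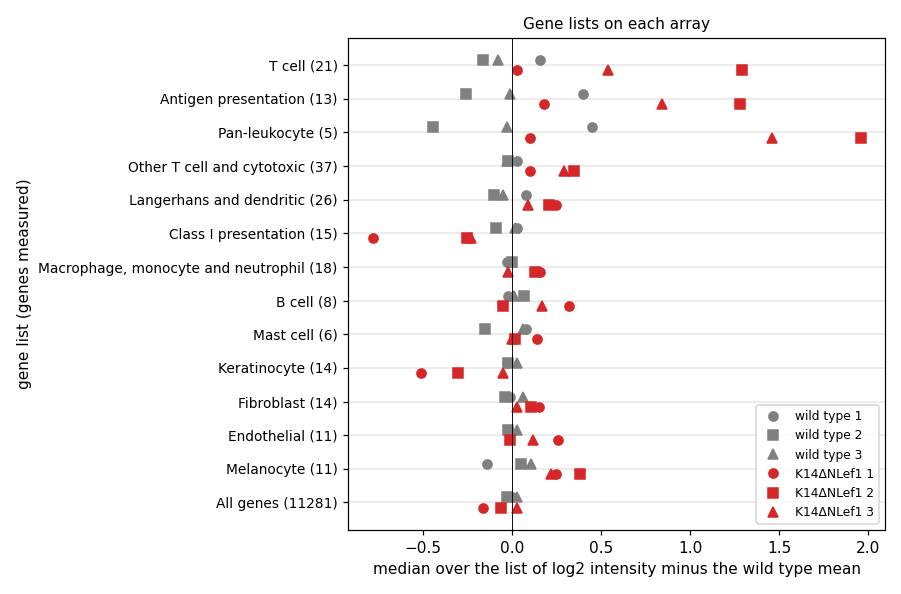
Median over each gene list of the log2 intensity minus the wild type mean, for every array, with the number of genes measured in brackets. Grey is wild type and red K14ΔNLef1, and symbols mark the replicate. T cell, antigen presentation and pan-leukocyte genes are highest on K14ΔNLef1 replicate 2, then 3, and class I and keratinocyte genes are lowest on replicate 1.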

How the data were processed

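The deposited values are linear intensities, 1 for each probe set on each array. The submitters' processing notes name RMA, Affymetrix Power Tools and mm9. Tool versions are not known here. Of 114330 probe sets, the 109751 with 1 symbol in the platform annotation were used. The gene table of GRCm38.p6 gave current names for 1226 symbols. Their log2 intensities were averaged per gene, and limma 3.58.1 (R 4.3.3) was fitted to 11281 genes with 2-sided p-values, Benjamini-Hochberg adjustment over all of them and a threshold of 0.05. The fit was tested on simulated data. Samples are biological replicates per the labels, and precision is limited by there being 3 arrays per genotype.

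The members and lists were chosen with earlier results of these data known. Values on every array are given for markers that define the cell types and for the 8 T cell, 6 antigen presentation and 2 pan-leukocyte members with the smallest p. Of other lists, defining markers and up to 3 genes with the smallest p are named. Further genes were named after their values were seen. RefSeq promoters were searched in Python 3.11.15, and the X box form was chosen after matches in these promoters were seen. Alternatives changed the summary of probe sets, the normalization, the filter on dim genes, the model and the arrays used.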

Additional observations from a re-analysis of the deposited data

How the results depend on the processing

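The count of T cell genes past the threshold, 1 with all arrays, was 0 with the median of the probe sets, with the array number as a covariate, with the replicate block and with adjacent numbers in the descriptions as a block. It was 2 without K14ΔNLef1 replicate 1 with the others quantile normalized, and 0 to 3 with 1 array left out. The pan-leukocyte count was 3 in that quantile normalized fit and 0 to 3 with 1 array left out. No antigen presentation gene passed with 1 array left out, and 1, Mfge8, did with the arrays at the same median. Array weights gave 13, 9 and 4 for T cell, antigen presentation and pan-leukocyte genes, a T cell median of 1.17 and 1297 genes in all, with a weight of 5.18 on K14ΔNLef1 replicate 2 and 0.15 on replicate 1. The other medians moved by less than the spread between arrays.

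Whether the replicate numbers pair the samples is not known. The correlations of same-numbered deviations were -0.163, -0.173 and 0.036, and those for adjacent description numbers were 0.199, -0.075 and -0.007. With so few arrays per genotype, these values cannot show whether samples were paired. The replicate block left 75 genes of all and the block by adjacent numbers 91, against 131 without a block. A block also leaves less data to estimate the spread, so the lower counts do not decide it either. Icos had an adjusted p of 0.0595 under the replicate block and 0.108 with the median of probe sets. It was 6.71e-04 to 0.108 over all alternatives other than leaving 1 array out.

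Of 39 members, 30 kept their sign in every alternative run. With array weights Cd80 was -0.01, Cd28 0.17, Gzmb -0.05 and Cd247 0.07. Cd247 was also 0.07 at the same median, 0.23 with the brighter probe sets, 0.08 quantile normalized, and 0.10 without K14ΔNLef1 replicate 1 and quantile normalized, where Gzmb was 0.00 and Cd4 -0.04. Cd4 was -0.08 with the median of probe sets and H2-DMb1 -0.02 with the array number. With 1 array left out, ranges that crossed 0 were -0.37 to 0.42 for H2-DMb1, -0.06 to 1.16 for Cd52, -0.54 to 0.00 for Cd28, -0.07 to 0.19 for Gzma, -0.25 to 0.64 for Il2rg and -0.12 to 0.11 for Cd247. With 5641 brighter genes kept, 22 members were left.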
